A study of Rattus norvegicus with 29 samples.

Results

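The subject is the stretch of rat chromosome 14 around Gabrb1, the gene of the beta 1 subunit of the GABA-A receptor, as it was seen by ATAC-seq in 4 brain regions. The study names an open chromatin region (OCR) at Gabrb1, chr14:38804098-38805271 in the rn6 build, 1174 bp wide, which is called the named OCR below. The members are all OCRs of the count table that overlap the window from 38304000 to 39305000, which reaches 500 kb to each side of it. There were 42 such OCRs among 98237 in all. The question was whether the other 41 move with the named OCR across brain regions and after methamphetamine (METH).

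The libraries came from adult male Sprague-Dawley rats that received METH (10 mg/kg) or saline (1 mL/kg) in 4 intraperitoneal injections 2 h apart, and tissue was taken the day after. The nucleus accumbens (NAc) and 2 hippocampal fields, Ammon's horn (CA) and the dentate gyrus (DG), each gave 4 saline and 4 METH libraries, and the subventricular zone (SVZ) gave 3 saline and 2 METH libraries. Saline followed the same schedule of injections. The 29 libraries came from 8 animals, 4 per treatment, each of which gave several regions, and they carried 2 library batch tags, called batch 1 and batch 2. Each library was made from nuclei of a whole tissue piece, so fewer cells of a type and less accessibility per cell cannot be told apart in any value below. Whether the tissue pieces held the cells that the labels name was not analysed here, because the table pairs no OCR with a gene.

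The GABA-A receptor is a chloride channel of 5 subunits that opens when it binds GABA, the main inhibitory transmitter of the brain, and it carries most fast inhibition. Gabrb1 is a neighbour of Gabra4, which encodes the alpha 4 subunit, known for receptors outside synapses in the DG and thalamus. In the RefSeq annotation of the later GRCr8 assembly, the genes next to each other here are Atp10d (a P4-type ATPase of lipid transport), Commd8 (a COMM domain protein), Gabrb1, Gabra4 and Cox7b2 (a subunit of cytochrome c oxidase). ATAC-seq marks promoters, which tend to be open in most cell types, and enhancers, which are often open in 1 cell type or region. An rn6 annotation was not used here, so no OCR other than the named one is tied to a gene, and exon, intron or promoter positions are not given.

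The window held more OCRs to the right of the named OCR, at higher coordinates, than to the left. There were 25 on the right, the nearest 4.3 kb away and the farthest 408.6 kb, and 16 on the left, from 61.1 to 470.6 kb away. In what follows an OCR is called by its distance from the named OCR in kb, midpoint to midpoint, and negative distances lie to the left. Widths ran from 342 to 1833 bp with a median of 673 bp, beside 662 bp over all OCRs.

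Levels are counts per 1000000 counts of the library (CPM), scaled by the upper quartile of each library's counts. Per kb of OCR, the mean level over the 29 libraries had a median of 5.95 CPM in the window and 7.07 CPM over all OCRs. The highest level per kb was that of the OCR at -228.9 kb (chr14:38575378-38576275), at 32.4 CPM per kb. The OCRs at -192.0 kb (chr14:38612013-38613285), at 18.4 CPM per kb, and at 306.7 kb (chr14:39110846-39111973), at 17.6 CPM per kb, followed. The named OCR was the 11th highest of the 42 at 8.92 CPM per kb, above 63.7% of all OCRs. Of the 42 OCRs, 27 lay below the median of all OCRs, 15 of them below the 25th percentile, and 5 lay above the 75th percentile.

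Peaks had been called in each library on its own. A peak overlapped the named OCR in 25 of 29 libraries, with a fold enrichment between 3.47 and 11.7 and a median of 5.29 in the authors' lists. All 16 DG and CA libraries had it, as had 6 of 8 NAc and 3 of 5 SVZ libraries. A peak in every library was seen at 5 of the 42 OCRs, those at -228.9, -192.0, 26.2, 306.7 and 349.8 kb. The median OCR of the window had one in 12 libraries. Peaks at the OCR at -163.4 kb were seen in 4 NAc libraries and in no other region. Several OCRs had peaks in DG and CA libraries alone, in 3 to 12 libraries each. They were those at -92.9, 8.0, 117.1, 224.5, 244.1, 297.9, 357.7, 397.8 and 398.8 kb.

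Depth was 7.55 to 19.4 M counts in OCRs per library (1 M is 1000000), and no 2 libraries held identical counts. The named OCR held 45 to 446 counts, and the window's OCRs held 1 to 613 counts each, so the weakest OCRs were measured with few reads. The top-decile share, the percentage of a library's counts taken by the strongest 10% of OCRs, ran from 45.5% to 62.4%. This measure of how strongly the counts gather in a few OCRs is given beside the results that move with it.

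With saline, the named OCR was more accessible in the hippocampus than in NAc or SVZ. Its CPM in the 4 DG libraries was 14.5, 15.3, 17.4 and 12.7, and in the 4 CA libraries it was 8.79, 4.86, 19.1 and 16.7. In NAc it was 6.23, 8.05, 6.0 and 6.01, and in SVZ it was 6.65, 5.39 and 6.38. The DG values all lay above the NAc and SVZ values, while CA replicate 2 lay below all 4 NAc values. The CA libraries had a mean of 12.4 ± 6.67 (SD, n = 4), and the DG libraries had one of 15 ± 1.97 (SD, n = 4). The mean was 6.57 ± 0.989 (SD, n = 4) in NAc and 6.14 ± 0.664 (SD, n = 3) in SVZ.

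The order of the 4 means was thus DG, CA, NAc and SVZ. The METH contrast, which used these saline libraries, was part of how the study picked this OCR. The differences between regions are therefore also given as a description with no test, as log2 fold changes fitted by edgeR in the 15 saline libraries. NAc against DG gave -1.19 (SE 0.33) and DG against SVZ gave 1.29 (SE 0.37). NAc against CA gave -0.91 (SE 0.33), and CA against SVZ gave 1.01 (SE 0.37). Of the neighbours in this order, DG and CA lay 0.27 apart (SE 0.33), and NAc and SVZ 0.10 (SE 0.36). With single saline libraries left out, DG against CA ran from 0.009 without CA replicate 2, whose value was the lowest of that group, to 0.56 without CA replicate 3, and CA against SVZ ran from 0.73 to 1.28. Without CA replicate 2 NAc against CA was at -1.18.

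**Figure D1:**
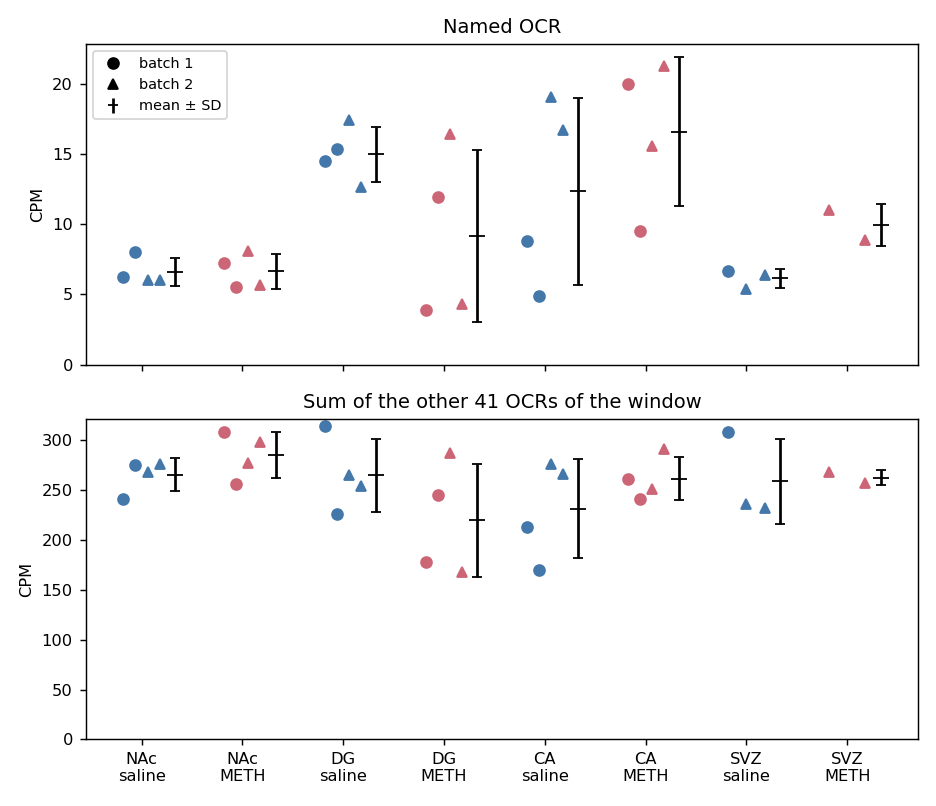
CPM of the named OCR (top) and the summed CPM of the other 41 OCRs of the window (bottom) in each library, by region and treatment (blue, saline; red, METH; circles, batch 1; triangles, batch 2; bars, mean ± SD). The DG saline values lie between 12.7 and 17.4, and DG METH replicates 1 and 4 lie low in both panels, as does CA saline replicate 2.

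The other OCRs did not follow 1 regional pattern in saline libraries. In 15 of the 42 OCRs, the named one included, both hippocampal means lay above the NAc and SVZ means, and in 12 both lay below. These shares, 35.7% and 28.6%, were close to the 29.7% and 27.2% of all OCRs. The hippocampal kind lay almost wholly on the right: 13 of 25 OCRs there and 1 of 16 on the left. Of the opposite kind, 6 lay on each side. DG had the highest of the 4 means in 16 of the 25 OCRs on the right and in 4 of the 16 on the left, 21 of 42 with the named one, against 29.2% of all OCRs.

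None of the other 41 OCRs was region-specific by edgeR's quasi-likelihood test, with a log2 fold change above 1, or under -1, against the mean of the other regions and an FDR (Benjamini-Hochberg, over all OCRs) under 0.01. In NAc, 4.66% of all OCRs passed above and 0.263% below the other regions. In DG these shares were 0.155% and 0.188%, in CA 0.0814% and 0.708%, and in SVZ 0.399% and 0.00611%. With so small a background outside NAc, the count of 0 in the window is not a result about its OCRs there. At an unadjusted p under 0.05, 8 of the 41 were above the other regions in NAc (19.5%, against 13.0% of all OCRs) and 3 below (7.32%, against 9.24%). In DG there were 5 above (12.2%, against 9.87%) and 0 below, against 7.95%. In CA there were 3 above (7.32%, against 8.51%) and 8 below (19.5%, against 11.3%), and in SVZ 3 above (against 9.74%) and 2 below (against 5.65%).

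The OCR nearest to a NAc call lay at -264.0 kb (chr14:38540381-38540983). Its saline CPM was 3.21, 4.08, 7.02 and 6.47 in NAc, 1.81, 2.10, 1.03 and 3.30 in DG, 1.31, 0.722, 0.654 and 2.25 in CA, and 2.64, 2.52 and 4.25 in SVZ. Every CA value and all DG values but replicate 4 lay below all NAc values. NAc was above the other regions by 1.37 on the log2 scale (SE 0.34, FDR 0.0140). With the animal as a block, which applies because regions shared animals, it was past the threshold (1.47, SE 0.29, FDR 0.00317), as were 6.7% of all OCRs. By DESeq2 it passed as well (1.38, FDR 0.00598), where 6.2% of all OCRs did. This OCR was chosen for naming after its values were seen.

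The largest NAc difference in the window was at -163.4 kb (chr14:38640984-38641566), where the log2 fold change was 1.43 (SE 0.45, FDR 0.0516). The mean CPM was 2.56 ± 1.39 (SD, n = 4) in NAc and 0.488 ± 0.166 (SD, n = 4) in CA. The first OCR to the left of the named one, at -61.1 kb (chr14:38743235-38743864), had the opposite regional pattern to it. Its saline CPM was 1.07, 1.53, 4.43 and 5.09 in NAc and 6.01, 1.48 and 3.78 in SVZ. In the hippocampus it was 1.43, 0.548, 0.515 and 0.806 in DG and 0.139, 0.131, 1.31 and 0.735 in CA. Its log2 fold change was 1.71 (SE 0.57, FDR 0.127) for SVZ, -1.18 (SE 0.63, FDR 0.360) for DG and -1.85 (SE 0.64, FDR 0.0998) for CA, the lowest of the window in both hippocampal regions. In METH libraries this OCR passed as region-specific in NAc against the mean of the other regions (2.56, FDR 0.00412), where 2.18% of all OCRs did. NAc was not set apart from SVZ there. The METH CPM was 9.37, 2.86, 1.39 and 10.1 in NAc and 2.89 and 3.09 in SVZ, so NAc replicates 2 and 3 lay below both SVZ values. It was 0.258 to 0.591 in DG and 0.432 to 1.60 in CA.

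The next OCR to the left, at -92.9 kb (chr14:38711453-38712115), had the regional pattern of the named OCR, with the largest DG difference of the window at 1.18 (SE 0.43, FDR 0.125) and the lowest NAc value at -1.37 (SE 0.50, FDR 0.0959). The third, at -112.6 kb (chr14:38691693-38692547), was at 0.52 in DG (SE 0.24, FDR 0.276) and within 0.5 of 0 in the other regions. On the right, the OCR at 4.3 kb (chr14:38808695-38809299) was higher in NAc than in the other regions by 0.51 (SE 0.23, FDR 0.189) and lower in CA by -0.71 (SE 0.24, FDR 0.0935). The OCR at 8.0 kb (chr14:38812313-38812965) had 0.50 in DG (SE 0.32, FDR 0.498). The OCR at 10.6 kb (chr14:38814789-38815751) had 0.75 in NAc (SE 0.28, FDR 0.116), 0.77 in SVZ (SE 0.31, FDR 0.221) and -0.98 in CA (SE 0.31, FDR 0.0732). OCRs of both regional kinds thus stood within 10.6 kb of the named one, though none passed the threshold.

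Farther to the right, the OCR at 244.1 kb (chr14:39048456-39049167) had the largest CA difference, 1.29 (SE 0.45, FDR 0.108). Its saline CPM was 3.60, 1.05, 12.2 and 3.67 in CA and 4.0, 2.47, 8.45 and 3.08 in DG, against 0.509 to 1.70 in NAc and 0.945 to 2.11 in SVZ. All DG values, and all CA values but replicate 2, lay above those of NAc and SVZ. The OCR at 265.9 kb (chr14:39070281-39070917) had the lowest SVZ value, -1.25 (SE 0.54, FDR 0.268).

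**Figure D2:**
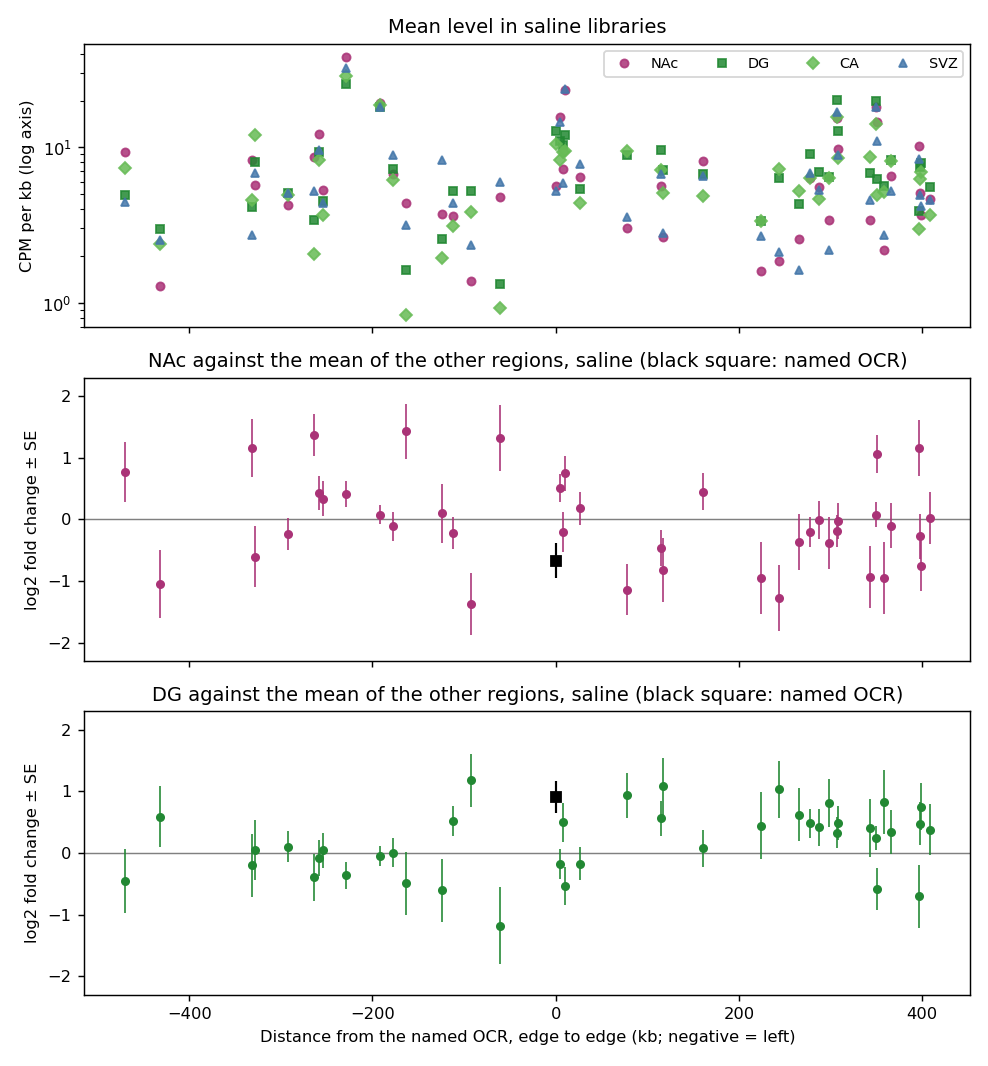
Top: mean CPM per kb (log axis) of each OCR of the window in the saline libraries of the 4 regions, by distance from the named OCR. Distances run between midpoints, although the axis label reads edge to edge. Middle and bottom: log2 fold change ± SE of NAc and of DG against the mean of the other regions, the named OCR as a black square. OCRs above and below 0 alternate along the window, and most DG values right of the named OCR lie above 0.

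After METH, the named OCR was on average lower in DG and higher in CA and SVZ. The study shows this OCR as a METH-changed region whose human counterpart holds a variant associated with unipolar depression. It reports the OCR as less open in DG and more open in CA and SVZ after METH. The METH response in these libraries was thus part of the choice, so the METH values of the named OCR are given as a description with no test. In DG its CPM was 3.87, 12.0, 16.4 and 4.29 in METH replicates 1 to 4, against 12.7 to 17.4 with saline. Replicates 1 and 4 lay far below the saline libraries, replicate 2 just below them and replicate 3 among them. The log2 fold change was -0.71 (SE 0.38). It was -0.46 without METH replicate 1, -0.48 without METH replicate 4, and -0.08 without both, as a difference of mean log2 CPM. These were the lowest values of the group, so leaving them out by itself raises the METH mean.

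In CA the METH values of the named OCR were 20.0, 9.54, 15.6 and 21.3 CPM, against 4.86 to 19.1 with saline, so the groups overlapped (log2 fold change 0.43, SE 0.37). Without CA saline replicate 2 the change was 0.16. In NAc the METH values were 7.25, 5.54, 8.12 and 5.67 CPM, and the change was 0.02 (SE 0.38). In SVZ the METH values were 11.0 and 8.86 CPM, both above the 3 saline values (0.69, SE 0.49), as in 10.6% of all OCRs. Both SVZ METH libraries were of batch 2, while SVZ saline replicate 1 was of batch 1. With the batch tag as a covariate the SVZ change was 0.59 (SE 0.49). The peak names of SVZ METH replicate 2 carry an extra tag whose meaning is not given.

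**Figure D3:**
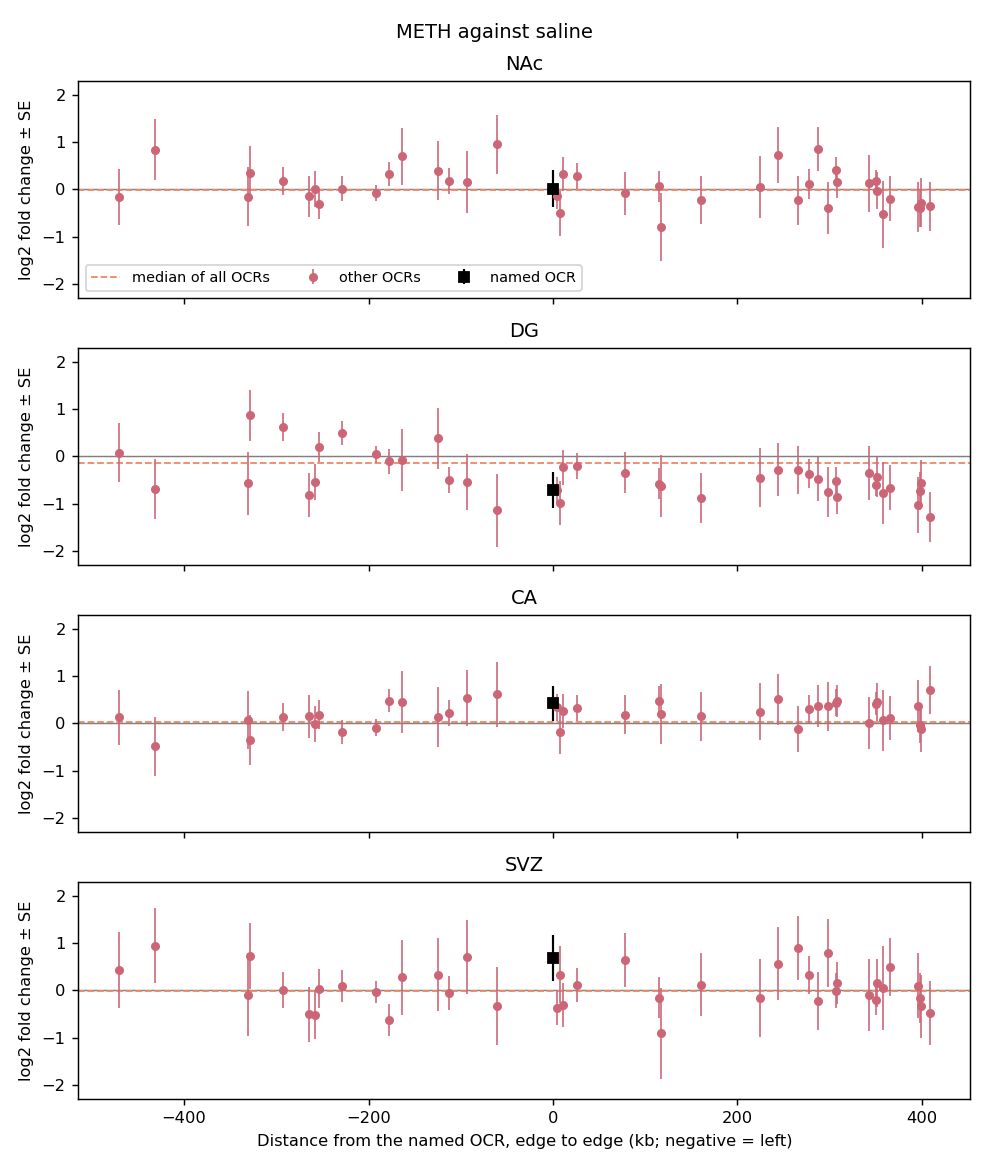
Log2 fold change ± SE of METH against saline for each OCR of the window in the 4 regions, by distance from the named OCR (black square). Distances run between midpoints, although the axis label reads edge to edge. The dashed line is the median of all OCRs. In DG all 25 OCRs right of the named one lie below 0, and in CA most lie above.

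None of the other 41 OCRs was a differentially accessible region (DAR), with a fold change above 1.5 and an FDR under 0.001, in any region by edgeR, nor by DESeq2. By edgeR this was 0.0% of all OCRs in each of the 4 regions as well. The outcome depended on how unwanted variation was treated. With 5 RUVr factors, a correction of the kind that the study used, 2 of the other 41 passed in DG, both lower after METH, where 2.46% of all OCRs passed as lower. They lay at 160.5 kb (-1.20, SE 0.23, FDR 0.000245) and 349.8 kb (-0.61, SE 0.12, FDR 0.000319). The named OCR was then at -0.89 (SE 0.18). With 1 factor none passed. No share of all OCRs is given here for DESeq2 or for 1 factor, so these counts of 0 are not a result about the window. How many factors the study took is not stated.

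In DG, 34 of the other 41 OCRs were lower after METH, with a median log2 fold change of -0.52. Over all OCRs 60.1% were lower, with a median of -0.15, and 32 of the 41 lay below that median. The 2 sides of the window differed: all 25 OCRs on the right were lower (median -0.58), and 9 of 16 on the left (median -0.09). At an unadjusted p under 0.05 there were 5 lower OCRs among the 41 (12.2%), those at 4.3, 8.0, 308.0, 349.8 and 408.6 kb, where 6.28% of all OCRs were lower. There was 1 higher OCR (2.44%), at -292.6 kb, where 3.57% of all OCRs were higher. The scaling moved the median of all OCRs in DG from -0.15 to -0.09 with TMM and to -0.01 with DESeq2. It moved the split of all OCRs at p under 0.05 to 6.85% higher and 4.92% lower with TMM and to 11.7% higher and 4.39% lower with DESeq2. Under each of the 3 scalings the 25 OCRs on the right stayed lower in DG, and 32 of the 41 lay below the median of all OCRs.

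In DG, 2 METH libraries lay low over the window as a whole. The summed CPM of the other 41 OCRs was 178 in DG METH replicate 1 and 167 in replicate 4, against 245 and 287 in replicates 2 and 3 and 226 to 314 with saline. The low libraries were those that were low at the named OCR. They were picked for these low values, so leaving them out by itself raises the METH group. With only replicate 1 or only replicate 4 left out, 33 of the 41 were lower by edgeR, beside 34 with all libraries. Without both, 18 of the 41 others were lower in DG by mean log2 CPM, 12 of 25 on the right, where 49.1% of all OCRs were lower. The top-decile share was 62.4% and 56.9% in replicates 1 and 4, 59.0% and 47.1% in replicates 2 and 3, and 47.3% to 58.1% with saline. With the share as a covariate, 28 of the 41 were lower, and how many of all OCRs were lower in that fit is not given here. The part of the share in the low values of these libraries was not tested further. Each batch held 1 of the 2 libraries: in batch 1, 35 of the 41 were lower (median -0.64) and the named OCR was at -1.11, and in batch 2, 31 were lower (median -0.43) and the named OCR was at -0.81. Over all OCRs 56.9% were lower in batch 1 (median -0.12) and 59.6% in batch 2 (median -0.14).

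The OCR at 4.3 kb, the closest to the named one, differed from it in that its DG groups did not overlap. Its CPM was 3.27, 5.51, 4.53 and 2.76 with METH and 8.58, 5.66, 5.67 and 6.52 with saline, all METH values below all saline values (-0.72, SE 0.29, unadjusted p 0.0183 by edgeR, FDR 0.493). It was the single one of the 41 whose DG groups did not overlap with METH lower, 2.44%, where 2.01% of all OCRs did so, and in none did they not overlap with METH higher, against 0.524%. The lowest log2 fold change was at 408.6 kb (chr14:39213054-39213542), the last OCR on the right. Its CPM was 0.344, 2.15, 1.18 and 0.762 with METH and 1.91, 4.11, 1.13 and 3.66 with saline (-1.28, SE 0.53, unadjusted p 0.0224 by edgeR, FDR 0.493). The groups overlapped, since saline replicates 1 and 3 lay below METH replicate 2.

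The highest log2 fold change in DG was that of the OCR at -328.0 kb (chr14:38476360-38476914). It had 10.1, 9.21, 2.56 and 11.0 CPM with METH and 1.72, 9.32, 3.81 and 3.08 CPM with saline (0.87, SE 0.54, unadjusted p 0.120 by edgeR, FDR 0.507). The strongest OCR of the window, at -228.9 kb, had 40.9, 34.9, 18.7 and 35.3 CPM with METH and 21.0, 31.7, 22.3 and 17.3 with saline (0.50, SE 0.26, FDR 0.493). METH replicates 1 and 4, which were low at the named OCR, were the highest 2 of the 8 DG libraries at both of these OCRs. The OCR at -192.0 kb, by contrast, stayed between 20.4 and 26.0 CPM in all 8 DG libraries.

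In CA, 32 of the other 41 OCRs were higher after METH, 21 of 25 on the right and 11 of 16 on the left, with a median of 0.19. Over all OCRs 53.4% were higher, with a median of 0.02. With single libraries left out, 24 to 37 of the 41 were higher, the fewest without CA saline replicate 2. None was at an unadjusted p under 0.05 in either direction, where 0.353% of all OCRs were higher and 0.467% lower. None had groups that did not overlap, where 0.483% of all OCRs were higher and 0.363% lower. In batch 1, which held CA saline replicate 2, 37 of the 41 were higher, with a median of 0.62 and 1.06 at the named OCR. In batch 2, 23 were higher and 18 lower, with a median of 0.04 and 0.03 at the named OCR. Over all OCRs 44.35% were lower in batch 1 (median 0.09) and 43.6% in batch 2 (median 0.05). The split in batch 2 was thus near that of all OCRs. The summed CPM of the others was 170 in CA saline replicate 2, against 213, 276 and 266 in the other saline libraries and 241 to 291 with METH. The highest log2 fold change was again at 408.6 kb, with 4.11, 1.52, 3.66 and 2.57 CPM after METH and 2.22, 0.460, 1.67 and 2.85 with saline (0.71, SE 0.50, FDR 1). The lowest value was that of the OCR at -431.9 kb (chr14:38372282-38373265), at -0.49 (SE 0.62, FDR 1).

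NAc and SVZ had no common direction. In NAc, 22 of the other 41 were higher and 19 lower, with a median of 0.02. None had an unadjusted p under 0.05, where 1.03% of all OCRs were higher and 1.42% lower. In 1 OCR, at 287.5 kb (chr14:39091957-39092506), all METH values (6.55, 3.69, 6.19 and 5.60 CPM) lay above all saline values (2.82, 2.95, 3.41 and 2.93 CPM), where 1.04% of all OCRs did so, and in none below, against 1.91%. Its log2 fold change was 0.86 (SE 0.46, FDR 1). The extremes in NAc were 0.96 (SE 0.63) at -61.1 kb and -0.80 (SE 0.72) at 117.1 kb (chr14:38921651-38921992), both with an FDR of 1. At -61.1 kb the METH values were 9.37, 2.86, 1.39 and 10.1 CPM, a wider spread than the difference.

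In SVZ, 22 of the other 41 were again higher and 19 lower, with a median of 0.04, and none was at an unadjusted p under 0.05, against 1.27% of all OCRs higher and 2.2% lower. With 2 METH and 3 saline libraries, groups that do not overlap are common: 10.6% of all OCRs had METH above saline and 9.64% below. Of the other 41 there were 2 above and 2 below. The extremes in SVZ were 0.95 (SE 0.79) at -431.9 kb and -0.91 (SE 0.97) at 117.1 kb, both with an FDR of 1.

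The METH effects in DG and CA pointed opposite ways over much of the window, as they did at the named OCR. Of the other 41 OCRs, 28 (68.3%) were lower in DG and higher in CA, 21 of 25 on the right and 7 of 16 on the left. Among all OCRs 40.3% were. The difference of the 2 effects, DG minus CA, had a median of -0.71 over the 41 and of -0.20 over all OCRs. This too changed when a few low libraries were left out. The 3 left out next were picked for the lowest summed level, so their removal by itself raises DG with METH and CA with saline. Without DG METH replicates 1 and 4 and CA saline replicate 2, by mean log2 CPM, 13 of the 41 (31.7%) were lower in DG and higher in CA, where 25.1% of all OCRs were, against 31 (75.6%) and 43.3% by the same measure with all libraries. The median difference was then 0.06 over the 41 and -0.03 over all OCRs, and the named OCR was at -0.08 in DG and 0.17 in CA. None of the other 41 passed the DAR threshold for the difference by edgeR or DESeq2 (0.0% of all OCRs by edgeR, with no share given for DESeq2). With 5 RUVr factors 2 did, both lower in DG, where 2.52% of all OCRs passed as lower. They lay at 306.7 kb (-1.01, SE 0.19, FDR 0.000247) and 349.8 kb (-1.05, SE 0.17, FDR 3.2e-05), and the named OCR was at -1.40 (SE 0.25). DG and CA libraries came from the same 8 animals, and the edgeR fit held no animal term, so its p-values ignore this pairing. At an unadjusted p under 0.05, 6 of the other 41 were lower in DG (14.6%, against 4.53% of all OCRs), those at 4.3, 114.8, 306.7, 308.0, 349.8 and 408.6 kb. None was higher in DG, against 3.95%. The extremes were -2.0 (SE 0.73, unadjusted p 0.0109 by edgeR, FDR 0.547) at 408.6 kb and 1.23 (SE 0.76) at -328.0 kb.

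The order of the regions moved with these differences. With saline, DG had the highest mean in 21 of the 42 OCRs and CA in 4. With METH, CA had the highest mean in 18 and DG in 4. On the right side alone DG led in 16 of 25 OCRs with saline and in 0 with METH, while CA led in 3 and then in 16. Among all OCRs, DG led in 29.2% with saline and 25.1% with METH, and CA in 19.2% and 27.6%. Without the same 3 libraries the shift was smaller: DG led in 14 of the 42 OCRs with saline and 9 with METH, and CA in 10 and 14. On the right DG then led in 10 and 4 OCRs, and CA in 9 and 13. Among all OCRs DG then led in 23.1% and 24.95%, and CA in 22.6% and 21.0%. These counts use the same libraries as the comparisons above and add no independent evidence.

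**Figure D4:**
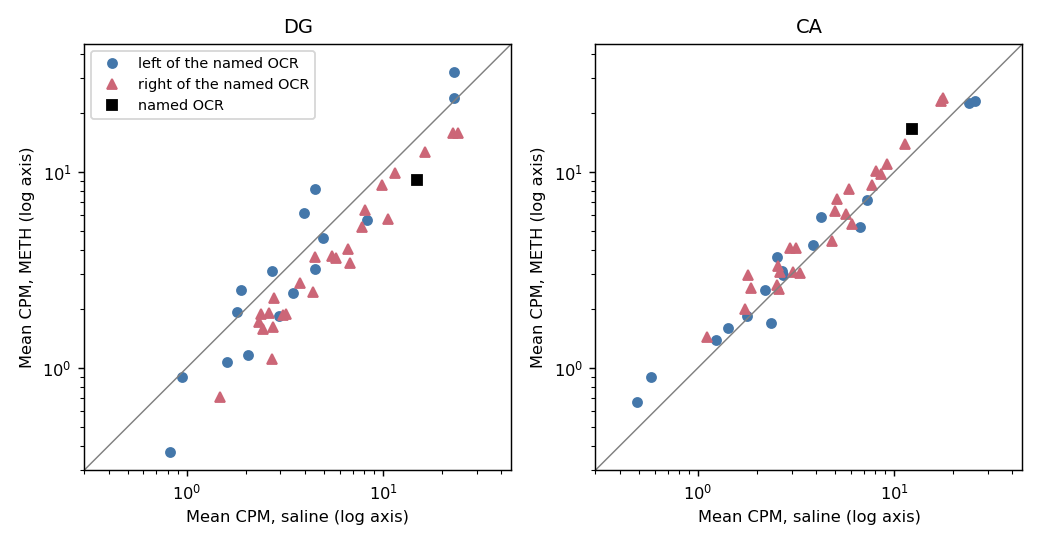
Mean CPM with METH against mean CPM with saline (log axes) in DG (left panel) and CA (right panel) for the OCRs left (circles) and right (triangles) of the named OCR (square). The grey line marks equal levels; in DG all 25 triangles lie below it, and in CA 21 of 25 lie above by the fitted fold change.

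Whether the other OCRs move with the named one was described by Pearson's r of log2 CPM over the 29 libraries, after the mean of each of the 8 groups was subtracted. The points share their libraries, and several libraries share an animal. The median r of the 41 others was 0.56, where the median of all OCRs was 0.16, and 37 of 41 were above 0, where 58.1% of all OCRs were. An r above 0.67, which 10.0% of all OCRs exceed, was seen in 9 of the 41. All 25 OCRs on the right had an r above 0, from 0.33 to 0.80 with a median of 0.63. The 16 on the left ran from -0.65 to 0.74 with a median of 0.25.

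The OCRs that tracked the named one best were far from it. They lay at 287.5 kb (r = 0.80), 349.8 kb (chr14:39153885-39155099, r = 0.75) and 160.5 kb (chr14:38964401-38965984, r = 0.74). At 160.5 kb the CPM was 1.29 and 1.05 in DG METH replicates 1 and 4, and 9.38 and 11.3 in replicates 2 and 3. The 3 nearest OCRs on the right had r = 0.33, 0.67 and 0.69, and the 3 nearest on the left had r = 0.19, 0.71 and 0.49. The lowest values were those at -228.9 kb (r = -0.65) and -328.0 kb (r = -0.63). The median was 0.65 for the 7 OCRs up to 100 kb away and 0.55 for the 34 others.

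**Figure D5:**
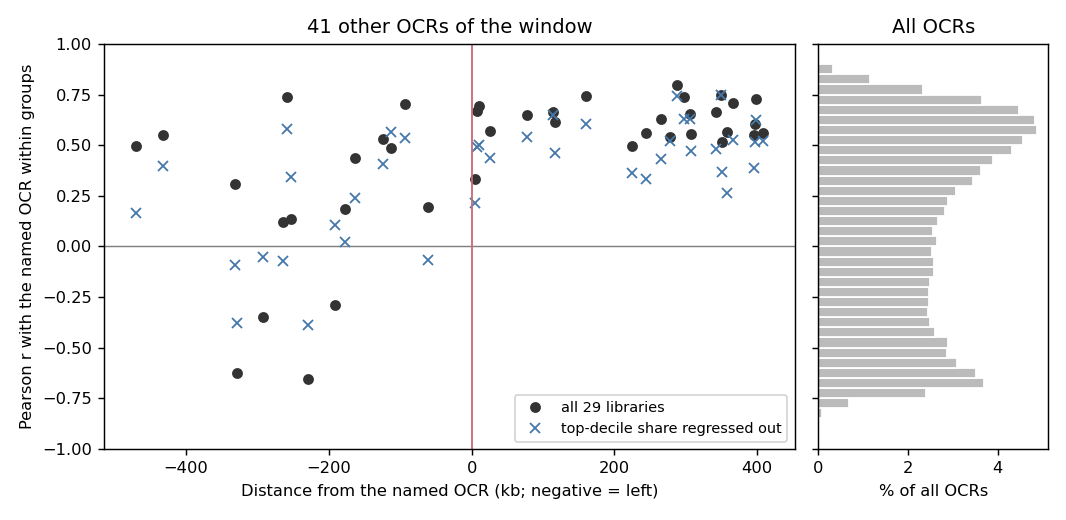
Left: Pearson's r with the named OCR within groups (29 libraries) for the other 41 OCRs, by distance; crosses show r after the top-decile share was regressed out. Right: distribution of the same r over all OCRs. The 25 OCRs on the right lie between 0.33 and 0.80, and those on the left spread from -0.65 to 0.74.

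Part of the co-movement went with the top-decile share. The named OCR had r = -0.57 with the share within groups over 29 libraries, the others had a median of -0.43, and 36 of 41 were below 0, where 56.2% of all OCRs were. The 2 OCRs that ran against the named one had r = 0.88 (-228.9 kb) and 0.72 (-328.0 kb) with the share, and the OCR at -192.0 kb had 0.62. With the share regressed out, the median r with the named OCR was 0.44, and 35 of 41 were above 0, where the median of all OCRs was 0.13. With batch means within groups subtracted it was 0.50. Without the 3 libraries of lowest summed level (DG METH replicates 1 and 4 and CA saline replicate 2), it was 0.31 over 26 libraries, with 35 of 41 above 0, where the median of all OCRs was 0.04.

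Within single regions, the median r of the 41 others was 0.67 over the 8 DG libraries and 0.72 over the 8 CA libraries, where all OCRs had medians of 0.25 and 0.24. It was 0.12 over the 8 NAc libraries, where all OCRs had 0.18, and SVZ, with 5 libraries, had too few for a correlation. The 3 libraries of lowest summed level all belong to DG and CA. Without them the median was 0.07 over 6 DG libraries, where all OCRs had 0.04, and 0.54 over 7 CA libraries, where all OCRs had 0.16. In NAc the named OCR itself varied little, from 5.54 to 8.12 CPM. Differences between these medians were not tested.

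Over the 8 group means, which hold the region and treatment differences, the other OCRs did not move with the named one as a block. The median r was 0.14, with 23 of 41 above 0, where the median of all OCRs was -0.04 and 47.4% were above 0. The values ran from -0.88 to 0.95. On the right the median was 0.71, with 18 of 25 above 0, and on the left it was -0.31, with 5 of 16 above 0. The highest values were 0.95 at 297.9 kb, 0.92 at 342.7 kb and 0.92 at -92.9 kb, and the lowest was -0.88 at -228.9 kb. OCRs with opposite regional patterns, such as the one at 10.6 kb, moved with the named OCR within groups (r = 0.69) and against it over the group means (r = -0.67).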

How the data were processed

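ATAC-seq data were processed by the authors with AIAP at default parameters on rn6. Peaks were called per library without pooling and merged into consensus OCRs with mergeBed (bedtools per the labels). The authors deposited raw counts per OCR and, for each library, peak lists with a fold enrichment ratio and the −log10 of p and q values, which were used as deposited. The read counter was not given in the sources used here. Groups came from sample titles, and animals and batch tags from peak names. The counts went into edgeR 4.0.16 under R 4.3.3 (upper-quartile scaling, filterByExpr keeping 98237 OCRs, trended dispersion, robust quasi-likelihood test), with 1 model over 29 libraries for METH and 1 over 15 saline libraries for regions. DESeq2 1.42.0, TMM, filters, covariates, blocks, RUVr with 1 or 5 factors, libraries left out, and a 250 kb window were alternatives. Correlations used log2 CPM with a prior count of 2. Peaks overlapped by at least 1 bp. The code was tested on simulated data.

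The members, lists and tests were chosen with earlier results of these data known. The named OCRs were the study's OCR, its 3 nearest neighbours on each side, the 3 with the highest level per kb, the 3 with the highest and 2 with the lowest correlation, and the extremes of each comparison; any other was named because it is one of a small count. Same-animal saline libraries had deviations that correlated between -0.34 and 0.66 (11 of 21 pairs above 0.1), so the animal was also fitted as a block in the saline comparisons of regions. The METH fits held no animal term. P-values measure the spread between libraries of 8 animals.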

Additional observations from a re-analysis of the deposited data

Results flagged for a closer look

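Single libraries far from the other 3 of their group were looked for in the 20 OCRs named by the rule, over the groups of 4 libraries (by the gap to the nearest value over the range of the group, against Dixon's limit). Of 120 groups 8 had one, and chance gives about 1 in 20. NAc METH replicate 3 stood apart in 3 of the 8: it had 4.71 CPM at -112.6 kb and 6.83 CPM at -328.0 kb, each the highest of its group, and 4.89 CPM at 4.3 kb, the lowest. DG METH replicate 3 was highest at 244.1 kb (7.58 CPM) and at 265.9 kb (5.12 CPM). NAc saline replicate 2 was highest at the named OCR (8.05 CPM), DG saline replicate 4 at 8.0 kb (11.9 CPM) and CA saline replicate 4 at -431.9 kb (6.52 CPM).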

How the results depend on the processing

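No window OCR passed the DAR threshold for METH in any region, or for the DG and CA difference, under any alternative other than 5 RUVr factors, with 3 in DG and 3 for the difference, each count with the named OCR in it, and 0 to 0 with single libraries left out. No share of all OCRs is given for the alternatives that gave 0, so these counts are not a result about the window. For NAc in saline, 1 OCR, at -264.0 kb, was called with DESeq2, with the animal as a block and with the replicate block (5.75% of all OCRs with the last), and 0 to 1 with a library left out (1, the same OCR, without CA saline replicate 4 or DG saline replicate 4, with 5.73% and 4.15% of all OCRs). In METH libraries the 1 OCR called lay at -61.1 kb. With the top-decile share as covariate 2 were called in NAc, at -264.0 and 350.8 kb (8.45% of all OCRs above), and 1 in CA, at 10.6 kb (3.66% below). For the named OCR, the METH log2 fold change in SVZ was 0.45 with the share as covariate, and with libraries left out it ran from 0.53 to 0.84 in SVZ, -1.16 to -0.46 in DG, 0.16 to 0.71 in CA and -0.09 to 0.13 in NAc. Among saline pairs of the named OCR, given without a test, NAc against DG was -1.16 with DESeq2 and with the share, and DG against SVZ was 1.25 and 1.37. In METH libraries NAc against SVZ was -0.58, DG against CA -0.86 and DG against SVZ -0.12, each of opposite sign to saline. With saline libraries left out, NAc against DG ran from -1.30 to -1.11, NAc against CA from -1.18 to -0.63, NAc against SVZ from -0.0123 (without NAc saline replicate 2) to 0.16 DG against SVZ from 1.199 to 1.36, DG against CA from 0.009 to 0.56 and CA against SVZ from 0.73 to 1.28. The median co-movement over group means was -0.11 within 250 kb. Without DG METH replicates 1 and 4, chosen after seeing the data, 18 of 41 others were lower in DG; without the 3 libraries of lowest summed level 13 were lower in DG and higher in CA, and the median co-movement within groups was 0.31. Peaks covering 50% of an OCR were seen in a median of 7 libraries. With METH and saline libraries of equal number, which are different animals (7 of 14 pairs correlated above 0.1), as a replicate block, the named OCR was at -0.76 in DG, 0.49 in CA, 0.84 in SVZ and -0.01 in NAc, and no call for METH changed. For SVZ this block mixed batches, since METH replicate 1 was of batch 2 and saline replicate 1 of batch 1. Few counts limit the weak OCRs, and 3 against 2 libraries limit SVZ.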
